A study of Papio anubis with 8 samples.

Results

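The expression of 10 genes of calcium and calmodulin signalling was read from 8 RNA libraries of fetal olive baboon (Papio anubis) hippocampus. They were chosen by gene symbol: CAMK2A, CAMK2B, CAMK2D, CAMK2G, CAMK4, CAMK1D, CAMKK2, CAMKV, NRGN and PPP3CA. Each of the 10 symbols matched 1 of the 37053 rows, and all 10 members were among the 16874 genes that passed a filter on low counts. The hippocampi came from fetuses at 0.9 of term, in a study of dams that differed in adiposity and leptin. No label assigns any of the 8 libraries to a maternal group, and none gives fetal sex or any treatment, so no groups were compared and every value below describes single libraries. Whether each library is a separate fetus is not stated. The label of AMB3 carries the ending L1000 where the others carry S and a number, and what these endings mean is not stated either.

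Calmodulin is the calcium sensor through which a rise of calcium inside a neuron reaches kinases and phosphatases. CaMKII, an oligomeric kinase built from the products of 4 genes, stays active after a calcium pulse by phosphorylating itself, and its alpha and beta subunits are abundant in the postsynaptic density of forebrain neurons. CaMKI and CaMKIV need a further kinase, encoded by CAMKK1 or CAMKK2, to become fully active, and CaMKIV phosphorylates the transcription factor CREB in the nucleus. Neurogranin holds calmodulin in dendrites when calcium is low, and calcineurin, a calmodulin-dependent phosphatase, opposes the kinases at the synapse.

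Total counts lay between 40404878 and 71648654 per library, so that counting error was small beside the differences between libraries: the members had between 1625 (CAMK4 in AMB3) and 161506 counts (CAMK2A in AMB10). Levels are CPM, the standard counts-per-million value after TMM scaling (trimmed mean of M-values), which evens out differences in composition between libraries. They carry transcript length and are compared across libraries only, never between genes. The log2 range of a gene is its log2 CPM, with a prior count of 2, in the highest library minus that in the lowest. Of 8 tested markers of CA fields and dentate gyrus, 5 had AMB8 and AMB10 as their 2 highest libraries and 1 had them as its 2 lowest. Among all tested genes the shares were 11.9% and 11.6%. FIBCD1, a gene of CA1 pyramidal neurons, reached 400 CPM in AMB8 and 367 CPM in AMB10. AMB3 had 84.0 CPM and AMB4 76.9 CPM, and the remaining libraries had 9.01 to 22.3 CPM. PROX1, which specifies granule cells of the dentate gyrus, had the same 3 libraries on top, AMB8 with 96.7 CPM, AMB10 with 81.9 CPM and AMB3 with 49.1 CPM, against 14.4 to 33.6 CPM in the others. The markers did not all go this way: MPPED1, chosen after its values were seen, was lowest in AMB8 (224.8 CPM) and AMB10 (260.9 CPM), against 312 to 577 CPM elsewhere. SPOCK1, the marker of highest median CPM on that list, was highest in AMB5 at 692 CPM, with 646 CPM in AMB8 and 586 CPM in AMB10. In bulk tissue, fewer cells of a type and less RNA per cell cannot be told apart. Log2 ranges of members that rest on AMB3, AMB8 or AMB10 are therefore also given without 1 or more of these libraries. Ratios and shares are given by library, and their ranges were not recalculated without AMB8 and AMB10 together.

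The order of the libraries differed between members, and the groups named next were drawn after the levels were seen. CAMK2A, PPP3CA, CAMK2B and CAMK1D had AMB8 and AMB10 as their 2 highest libraries, as had 11.9% of all tested genes. CAMKK2 and NRGN had AMB3, AMB8 and AMB10 as their 3 lowest, as had 9.87% of tested genes. CAMK2G had AMB10 and AMB8 as its 2 lowest, CAMK2D was lowest in AMB8 alone, and CAMK4 and CAMKV were in none of these groups. For CAMKV this rested on a near tie, with AMB3 at 645 CPM and AMB10 at 644 CPM after AMB8. A log2 range of 1 or more, meaning 2-fold, was found for 4 of the 10 members: CAMK2A, CAMKK2, CAMK2D and PPP3CA. Among all tested genes 36.1% reached that range, so the members' share was near the background. Their median log2 range was 0.71, against 0.77 over all tested genes. Without AMB8 and AMB10, 1 of the 10 members (CAMKK2) reached a log2 range of 1, against 26.5% of tested genes, and without AMB3, AMB8 and AMB10 none did, against 19.8%.

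**Figure D1:**
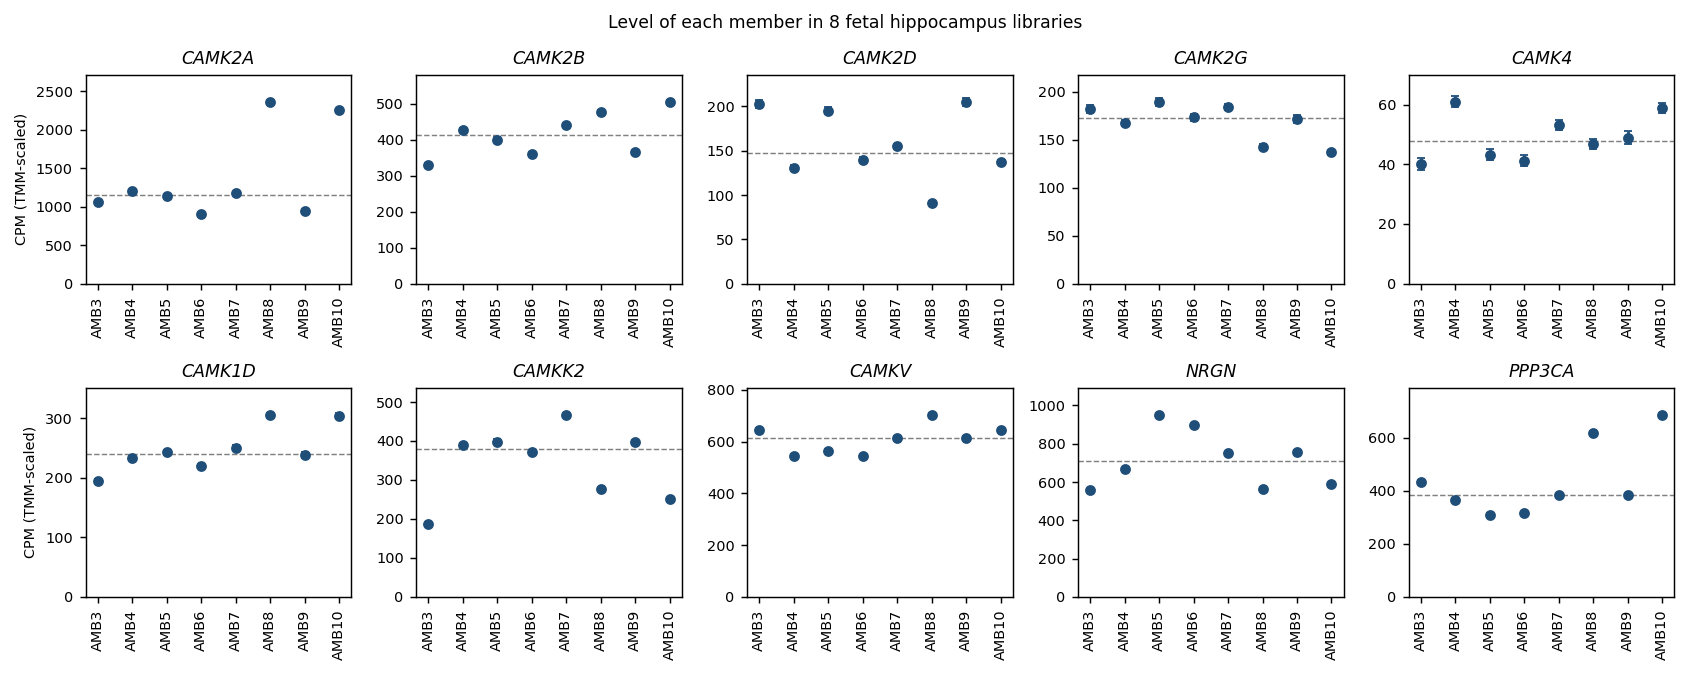
Level of each member (vertical axis, CPM on TMM-scaled library sizes, starting at 0) in the 8 libraries (horizontal axis). Points are single libraries with exact Poisson 95% intervals, mostly smaller than the points, and the dashed line is the median over libraries. CAMK2A stands at 2360 CPM in AMB8 and 2258 CPM in AMB10 and at most at 1204 CPM elsewhere, and CAMKK2 is lowest in AMB3.

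CAMK2A encodes the alpha subunit of CaMKII, the form that marks mature excitatory forebrain neurons (ID 101011087, assembly Panubis1.0, chromosome 5, 142977379 to 143047413, minus strand). It stood at 2360 CPM in AMB8, 2258 in AMB10, 1204 in AMB4, 1173 in AMB7, 1136 in AMB5, 1060 in AMB3, 947.5 in AMB9 and 898.5 in AMB6. The libraries thus formed an upper pair and a lower set of 6, with a gap between AMB10 and AMB4. The log2 range was 1.39, or 2.63-fold, larger than in 79.5% of tested genes. Each library's Poisson 95% interval was separate from that of its neighbour in the order, as in AMB8 (2349 to 2372 CPM) and AMB10 (2247 to 2269 CPM). Without AMB8 and AMB10 the log2 range was 0.42.

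CAMK2B encodes the beta subunit, which also binds actin in dendritic spines (ID 101008925, chromosome 4, 113985216 to 114091190, minus strand). It had the same 2 libraries on top, at 506 CPM in AMB10 and 477 CPM in AMB8, but they stood closer to the rest, with 441 CPM in AMB7 and 429 CPM in AMB4. AMB3 was lowest at 331 CPM, and the log2 range was 0.61. AMB9 and AMB6, at 366 and 360 CPM, could not be told apart by counting error.

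CAMK2D encodes the delta subunit, which is widely expressed and best known from heart (ID 101009984, chromosome 3, 75343194 to 75649137, plus strand). It stood at 205 CPM in AMB9, 202 in AMB3, 195 in AMB5, 155 in AMB7, 139.5 in AMB6, 137 in AMB10, 131 in AMB4 and 90.8 in AMB8. The lowest library, AMB8, was the highest one for CAMK2A, whereas AMB10 lay close to AMB6 and above AMB4. The log2 range was 1.18 over all libraries and 0.65 once AMB8 was left out. AMB9 and AMB3 had overlapping intervals, as had AMB3 and AMB5, and AMB6 and AMB10.

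CAMK2G encodes the gamma subunit, which in cultured rodent neurons carries calmodulin to the nucleus (ID 101019885, chromosome 11, 70284805 to 70346999, minus strand). It varied less, from 137 CPM in AMB10 and 142 CPM in AMB8 to 189 CPM in AMB5, with a median of 172 CPM and a log2 range of 0.47. The intervals of AMB10 and AMB8 overlapped, and both lay below that of AMB4, the next library, at 167 CPM. Without AMB8 and AMB10 the log2 range was 0.18. The annotation lists many transcript models for the beta, delta and gamma genes (16, 46 and 30), and the deposited counts per gene do not separate them.

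The CaMKII genes therefore made up different shares of the CaMKII counts in different libraries. CAMK2A took 76.9% of the CaMKII counts in AMB8 (95% Wilson interval 76.68% to 77.05%) and 74.3% in AMB10 (74.15% to 74.52%), and between 56.1% and 62.4% in the other 6 libraries. CAMK2D took 2.96% in AMB8 (2.88% to 3.03%) and 4.52% in AMB10 (4.43% to 4.60%), and 6.77% to 12.1% elsewhere. CAMK2G took 4.63% and 4.50% in these 2 libraries and 8.67% to 11.0% elsewhere, and CAMK2B 15.55% and 16.65% against 18.65% to 22.92%. For each of the 4 genes, AMB8 and AMB10 thus lay outside the span of the other libraries. The 4 shares of a library sum to the whole, so a larger CAMK2A share lowers the others, and these are not 4 separate results. In level, CAMK2B was highest in these 2 libraries, at 477 CPM in AMB8 and 506 CPM in AMB10. CAMK2G was lowest in both in level too, and CAMK2D in AMB8 only. The summed level of the 4 genes was 3071 CPM in AMB8 and 3038 CPM in AMB10, against 1571 to 1952 CPM in the others. These shares are of counts, not corrected for transcript length, which enters their size and could alter the order of libraries. The intervals and the Poisson ones cover counting error only.

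**Figure D2:**
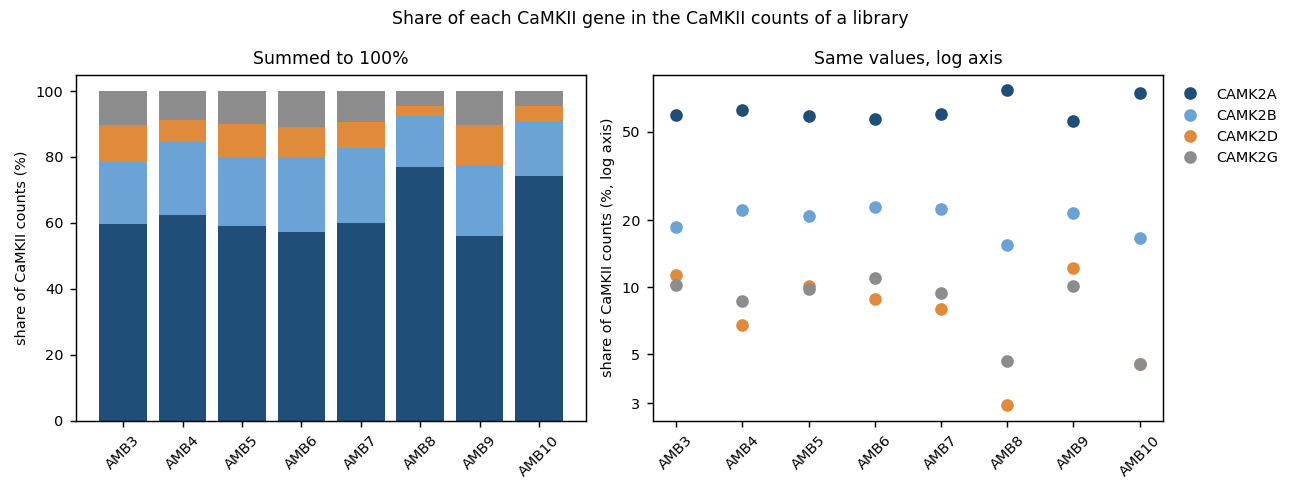
Share of CAMK2A, CAMK2B, CAMK2D and CAMK2G in the summed CaMKII counts of each library (percent, not corrected for transcript length), as stacked bars that start at 0 and, for the same values, as points on a log axis. CAMK2A is above 74% in AMB8 and AMB10 and at most 62.4% in the other libraries.

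Within a library, ratios between members do not depend on the scaling between libraries. CAMK2A had 4.94 counts per CAMK2B count in AMB8, 4.465 in AMB10, 3.20 in AMB3 and between 2.50 and 2.84 in the remaining libraries, a log2 range of 0.99. The ratio of CAMK2D to CAMK2A counts spread furthest among the 6 ratios computed, from 0.0384 in AMB8 and 0.06075 in AMB10 to 0.217 in AMB9, a log2 range of 2.49. Leaving out AMB8 lowered it to 1.83, and the lowest ratio apart from AMB8 and AMB10 was 0.1085 in AMB4.

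CAMKK2 encodes the upstream kinase of CaMKI, CaMKIV and AMPK (ID 101018841, chromosome 9, 115619595 to 115678113, minus strand). It stood at 466 CPM in AMB7, 398 in AMB5, 397 in AMB9, 389 in AMB4, 370.5 in AMB6, 276 in AMB8, 250.3 in AMB10 and 186 in AMB3. The 3 lowest libraries were clear of the other 5, with AMB3 lowest rather than AMB8 or AMB10. The log2 range was 1.32, and 0.90 without AMB3. Without AMB3, AMB8 and AMB10 it was 0.33. AMB5, AMB9 and AMB4 had intervals that overlapped from neighbour to neighbour.

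CAMK1D encodes a CaMKI isoform that CAMKK2 can activate, and CAMK4 encodes CaMKIV, the nuclear kinase. CAMK1D (ID 101024349, chromosome 11, 113296943 to 113786213, plus strand) did not follow CAMKK2: it was highest in AMB8 and AMB10, at 305 and 304 CPM with overlapping intervals, and then stood at 250.4 CPM in AMB7. It was lowest in AMB3, at 194 CPM. Its log2 range was 0.65, and 0.37 without AMB8 and AMB10. CAMK4 (ID 101009081, chromosome 5, 104090125 to 104347040, plus strand) was at 61.0 CPM in AMB4 and 58.8 CPM in AMB10, with overlapping intervals, and at 53.3 CPM in AMB7. The lowest libraries were AMB5 with 43.2 CPM, AMB6 with 41.2 CPM and AMB3 with 40.1 CPM, neighbours whose intervals overlapped, and the log2 range was 0.61. AMB8 lay in the middle for CAMK4, with 46.9 CPM, so AMB8 and AMB10 stood apart from each other for this gene.

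CAMKV, a kinase-like protein of vesicles and spines that lacks kinase activity (ID 101015650, chromosome 2, 90687017 to 90699851, minus strand), had the smallest log2 range of the members, 0.37, larger than in 11.1% of tested genes. It ran from 543 CPM in AMB6 and 545 CPM in AMB4, whose intervals overlapped, to 702 CPM in AMB8, with AMB3 and AMB10 next at 645 and 644 CPM. The annotation gives DAG1, the dystroglycan gene, a span that overlaps CAMKV, and DAG1 had 3556 to 8443 counts per library. How reads shared by both were counted is not given in the sources used here, so the level of CAMKV is uncertain to that extent. The other genes that overlapped a member, at CAMK4, CAMK1D, CAMKK2 and CAMKV, had at most 81 counts in a library.

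NRGN encodes neurogranin, a small dendritic protein with an IQ motif that binds calmodulin and is phosphorylated by protein kinase C (ID 101007388, chromosome 12, 10092825 to 10100132, minus strand). Its level was 950 CPM in AMB5, 896 in AMB6, 760 in AMB9, 751 in AMB7, 668 in AMB4, 591 in AMB10, 565 in AMB8 and 557 in AMB3. The same 3 libraries as for CAMKK2 were lowest, but the step to AMB4 was small, and AMB8 and AMB3 could not be told apart by counting error. Its log2 range of 0.77 was larger than in 50.1% of tested genes. Against CAMK2A the difference was wider: NRGN had 0.998 counts per CAMK2A count in AMB6, 0.836 in AMB5, 0.802 in AMB9, 0.640 in AMB7, 0.555 in AMB4 and 0.5259 in AMB3, but 0.262 in AMB10 and 0.239 in AMB8. That log2 range was 2.06, or 4.17-fold. NRGN and CAMK2A, both genes of excitatory forebrain neurons, therefore differed in the order of the libraries.

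PPP3CA encodes the alpha catalytic subunit of calcineurin, the major form in brain (ID 101024785, chromosome 3, 87782986 to 88063067, plus strand). It stood at 685.5 CPM in AMB10, 619 in AMB8, 434 in AMB3, 383 in AMB9 and in AMB7, 364 in AMB4, 316 in AMB6 and 310 in AMB5. The upper pair was that of CAMK2A, with AMB3 next. The log2 range was 1.14, and it was 0.997 without AMB10, 0.48 without AMB8 and AMB10, and 0.30 without AMB3 as well. AMB9 and AMB7 overlapped in their intervals, and so did AMB6 and AMB5. The ratio of PPP3CA to CAMK2A counts had a log2 range of 0.64, from 0.262 in AMB8 to 0.409 in AMB3.

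**Figure D3:**
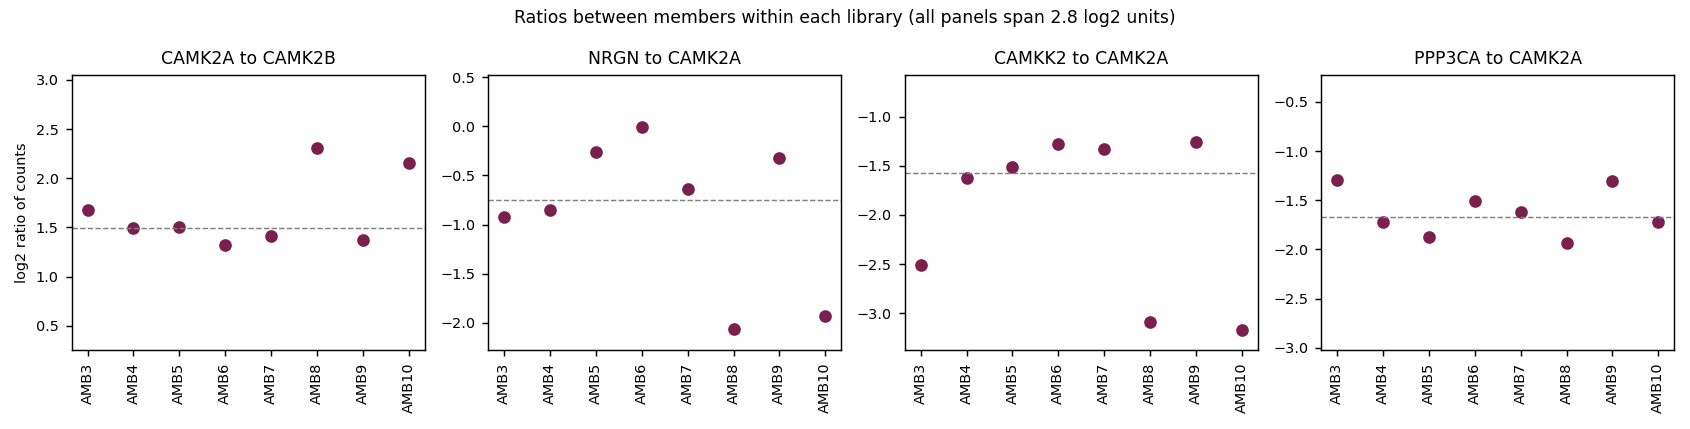
Log2 ratio of the counts of 2 members within each library (vertical axis) for the 8 libraries, with the median as a dashed line. The panels differ in their position but share 1 span. NRGN to CAMK2A is near -2 in AMB8 and AMB10 and between -0.93 and 0 in the other libraries, and CAMKK2 to CAMK2A is lowest in AMB8, AMB10 and AMB3.

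Counted by library, 3 members (CAMK2A, CAMK1D and CAMKV) had their highest level in AMB8, where 12% of all tested genes were highest, and 2 (CAMK2B and PPP3CA) in AMB10, where 16.7% were. AMB3 was the lowest library for 5 members (CAMK2B, CAMK4, CAMK1D, CAMKK2 and NRGN), and for 11.2% of tested genes. A count added after the levels were seen was that of genes with AMB8 and AMB10 at one end of the order. These were the 2 highest libraries for 4 of the 10 members, against 11.9% of tested genes, and the 2 lowest for 1 member (CAMK2G), against 11.6%. At either end there were thus 5 members, and 6 with DESeq2 size factors in place of TMM. The members were chosen with earlier results of these libraries known, so these counts carry no test.

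The likeness of 2 genes was measured as the root mean square difference of their log2 CPM over the 8 libraries, each gene centred on its own median, so that 0 means the same pattern. The closest pair of members was CAMK2B and CAMK1D, with 0.09. CAMK2A and PPP3CA differed by 0.23, and CAMK2A and CAMKK2 by 0.85, the widest of the 45 pairs. Outside the members, 13568 tested genes with a symbol other than a LOC number were compared with the 4 members of wide range. The 3 genes nearest to CAMK2A were ARHGEF25, a guanine nucleotide exchange factor (0.13), HPCA, the calcium sensor hippocalcin (0.14), and KLHL2, a kelch-like protein (0.14). HPCA stood at 936 CPM in AMB8 and 794.5 CPM in AMB10, and at 384 to 438 CPM in the other libraries. Nearest to PPP3CA were GSKIP (0.10), which binds the kinase GSK3B, the anoctamin gene ANO5 (0.11) and UBL3 (0.12). Nearest to CAMKK2 were AFF3 (0.11), the alpha-actinin gene ACTN2 (0.13), whose product binds CaMKII and NMDA receptors in spines, and ZNF385B (0.14). For CAMK2D they were GDA, guanine deaminase (0.15), TIMP2 (0.17) and ALDH1B1 (0.17). ACTN2 was at 51.8 CPM in AMB3, 63.2 in AMB8 and 66.5 in AMB10, and at 88.7 to 120 CPM in the other libraries, the same low 3 as CAMKK2. Such likeness follows from how ACTN2 and HPCA were picked, and 9.87% of all tested genes had these 3 libraries lowest. With genes centred on their mean in place of their median, 8 of these 12 genes were still among the nearest 3, and KLHL2, ZNF385B, ANO5 and UBL3 were not.

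Other genes of the pathway came from 10 lists with 92 genes, of which 88 had a row and 81 were tested. A log2 range of at least 1 was reached by 33 of the 81 (40.7%), and their median range was 0.88, against 36.1% and 0.77 of all tested genes. AMB8 and AMB10 were the 2 highest libraries in 17 of them (21.0%) and the 2 lowest in 14 (17.3%), against 11.9% and 11.6% of all tested genes.

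Among the calmodulin genes the median log2 range was 0.38. CALM2 and CALM3, which encode the same calmodulin protein, had log2 ranges of 0.37 and 0.39. CALM2 lay between 816 CPM in AMB6 and 1052 CPM in AMB3 and AMB9, and CALM3 between 1776 CPM in AMB7 and 2329 CPM in AMB5. CALML4, a calmodulin-like gene, was at 0.407 to 1.495 CPM, and CALML3 and CALML5 had no count in any library. Other genes of proteins with an IQ motif varied more, with all 3 tested past a log2 range of 1, against 36.1% of all tested genes. GAP43, the growth cone protein, had 876 CPM in AMB5, its highest library, and 395.5 CPM in AMB10 and 479.5 CPM in AMB8, its 2 lowest. PCP4 ranged from 18.4 CPM in AMB8 to 131 CPM in AMB3, a log2 range of 2.83.

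Among 14 other calmodulin-related kinases 5 had a log2 range of at least 1 (35.7%, against 36.1% of all tested genes), with a list median of 0.90. DCLK1, a microtubule-binding kinase of developing neurons, lay between 777 and 1089 CPM. Its relative DCLK2 had the widest range, at 63.2 CPM in AMB10 and 54.5 CPM in AMB8 and 17.0 to 32.0 CPM elsewhere. CAMKK1, the other upstream kinase, was highest in AMB8 (128 CPM), where CAMKK2 was low, and otherwise lay between 85.5 and 108 CPM. The 2 genes of CaMKII inhibitor proteins both had AMB8 and AMB10, the highest libraries for CAMK2A, as their 2 lowest, as had 11.6% of all tested genes. CAMK2N1 was at 479 and 447 CPM there and at 515 to 676 CPM elsewhere. CAMK2N2 stood at 63.9 and 49.5 CPM, and at 87.3 to 116 CPM elsewhere.

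The calcineurin subunits did not share 1 pattern. PPP3CB, the beta catalytic subunit, and PPP3R1, the regulatory subunit, had the same 2 highest libraries as PPP3CA: PPP3CB was at 691 CPM in AMB10 and 647 CPM in AMB8, and at 469 to 623 CPM elsewhere. PPP3R1 was at 522 CPM in AMB10, but its 412 CPM in AMB8 was close to the 398 CPM in AMB3. PPP3CC, the gamma catalytic subunit, was lowest there, at 19.8 CPM in AMB10 and 22.5 CPM in AMB8, with 27.2 CPM in AMB3 and 37.2 to 42.9 CPM in the other libraries. Of 8 tested calcineurin regulators and anchors 3 had a log2 range of at least 1 (37.5%, against 36.1% of all tested genes). CHP1, a calcineurin-like calcium-binding protein, lay between 466 and 606 CPM. FKBP1A, the FK506-binding protein, was at 33.5 CPM in AMB9 and 70.9 to 119 CPM elsewhere. Calcineurin sends NFATC1 to NFATC4 to the nucleus, whereas NFAT5 is not controlled in that way. Of these 5 factors 3 had a range of at least 1 (60.0%, against 36.1% of all tested genes). These 3, NFATC1, NFATC2 and NFATC4, were all below 6 CPM. NFATC2 lay between 0.806 and 2.08 CPM, and NFATC3 between 11.9 and 16.1 CPM.

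Targets and partners of CaMKII at the synapse numbered 19 on the list, 17 of them tested. A log2 range of at least 1 was reached by 8 (47.1%, against 36.1% of all tested genes), with a list median of 0.91. GRIN1, the NMDA receptor subunit, lay within 518 to 641 CPM. GRIA1, the AMPA receptor subunit that CaMKII phosphorylates, had the same upper pair as CAMK2A, at 1105 CPM in AMB8 and 1042 CPM in AMB10, with 760.5 CPM in AMB3 and 438.5 to 575 CPM elsewhere. ARC, whose product regulates AMPA receptors, had the widest range of that list, from 24.6 CPM in AMB3 to 68.2 CPM in AMB6. In the list of CaMKIV and CREB, 2 of 14 tested genes passed a log2 range of 1, HDAC4 and MEF2C (14.3%, against 36.1%). MEF2C, a transcription factor that calcineurin and the CaM kinases regulate, had 3 low libraries, AMB8 with 123 CPM, AMB10 with 140 CPM and AMB3 with 326 CPM, while the remaining 5 held 1201 to 1782 CPM. HDAC4, a repressor of MEF2 factors that CaM kinases export from the nucleus, was lowest in the same 3 libraries, at 64.1, 72.7 and 80.2 CPM, and between 108 and 169 CPM elsewhere. CREB1 lay between 46.1 and 64.8 CPM. Of 11 tested calmodulin-dependent cyclases, phosphodiesterases, pumps and related enzymes 6 had a range of at least 1 (54.5%, against 36.1%). ADCY1, the calmodulin-stimulated adenylyl cyclase, was lowest in the same 3, AMB8 (306 CPM), AMB10 (453 CPM) and AMB3 (669 CPM), while the remaining 5 held 887 to 1285 CPM.

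**Figure D4:**
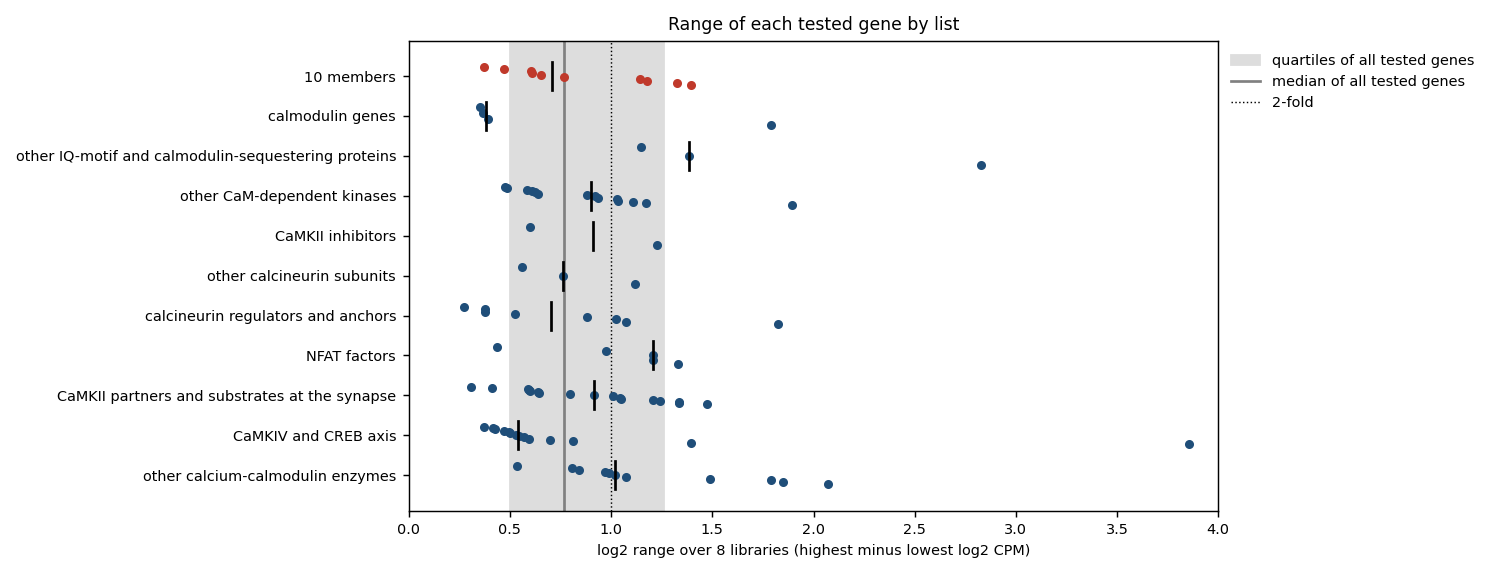
Log2 range over the 8 libraries (horizontal axis) of each tested gene, by list (rows). Points are genes, short black bars list medians, the grey band runs between the quartiles of all 16874 tested genes, the grey line is their median of 0.77 and the dotted line a 2-fold range. Calmodulin genes have a median of 0.38, and MEF2C lies farthest to the right at 3.85.

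Neuron content was described by 12 pan-neuronal markers, whose score (the median over markers of centred log2 CPM) lay between -0.21 in AMB6 and 0.22 in AMB5. In AMB8 it was -0.10 and in AMB10 0.00. The markers did not move together: 4 of the 12 had AMB8 and AMB10 as their 2 lowest libraries and 1 as its 2 highest, against 11.6% and 11.9% of all tested genes. The score is therefore a rough description, and values relative to it are not corrected for the number of neurons. Taken relative to the score, CAMK2A stood at 1.13 in AMB8 and 0.96 in AMB10 on the log2 scale and at 0.26 or lower elsewhere, with a range of 1.47. PPP3CA stood at 0.789 and 0.835, and at 0.13 or lower elsewhere. CAMKK2 was at -1.22 in AMB3, -0.61 in AMB10 and -0.36 in AMB8. The range relative to the score was larger than the plain range for 9 of 10 members, all but CAMK2D, and was above 1 for 5, NRGN being the fifth with 1.09. The same shares over all tested genes were not calculated, so these counts cannot be read as a trait of the members.

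SLC17A7, the vesicular glutamate transporter of cortical and hippocampal excitatory neurons, was highest in AMB5 at 1365 CPM, with 1249 CPM in AMB8 and 1184 CPM in AMB10, and 806 to 996 CPM in the other libraries. The summed level of 8 excitatory markers ran from 1657 CPM in AMB7 to 2303 CPM in AMB5, and that of 8 CA field and dentate markers from 1094 CPM in AMB6 to 1617 CPM in AMB8. Interneuron markers (8 of 8 tested) summed to 358.5 CPM in AMB8 and to at most 818 CPM in AMB6, and GAD1, which makes GABA, ran from 129 CPM in AMB8 to 311 CPM in AMB5. Astrocyte markers (8 of 8) summed to 3307 CPM in AMB7 and 7000 CPM in AMB10, and myelin markers (11 of 11) to 819 CPM in AMB5 and 5198 CPM in AMB10. MBP, myelin basic protein, was at 1698 CPM in AMB10 and 1096 CPM in AMB8, but also at 1580 CPM in AMB4, where CAMK2A was at 1204 CPM. Precursor markers of oligodendrocytes (7 of 7) summed to 204 to 614 CPM, microglia markers (7 of 8) to 78.6 to 166 CPM and endothelial markers (6 of 6) to 148 to 213 CPM. Markers of meninges (6 of 6) summed to 186.5 to 748 CPM, of choroid plexus and ependyma (4 of 5 tested, all 5 summed) to 134 to 182 CPM, and of blood (5 of 7) to 38.9 to 154 CPM. Most of the choroid plexus and ependyma sum was FOXJ1, at 115 to 148 CPM, and it hides wider differences. Of the 4 tested genes of that list 3 had a log2 range of at least 1, against 36.1% of all tested genes. TTR, the defining choroid plexus transcript, was at 0 in AMB5 and at most 2.47 CPM elsewhere, and no listed marker with a row was at 0 in every library. The part of these cell types in the differences between libraries was not tested.

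**Figure D5:**
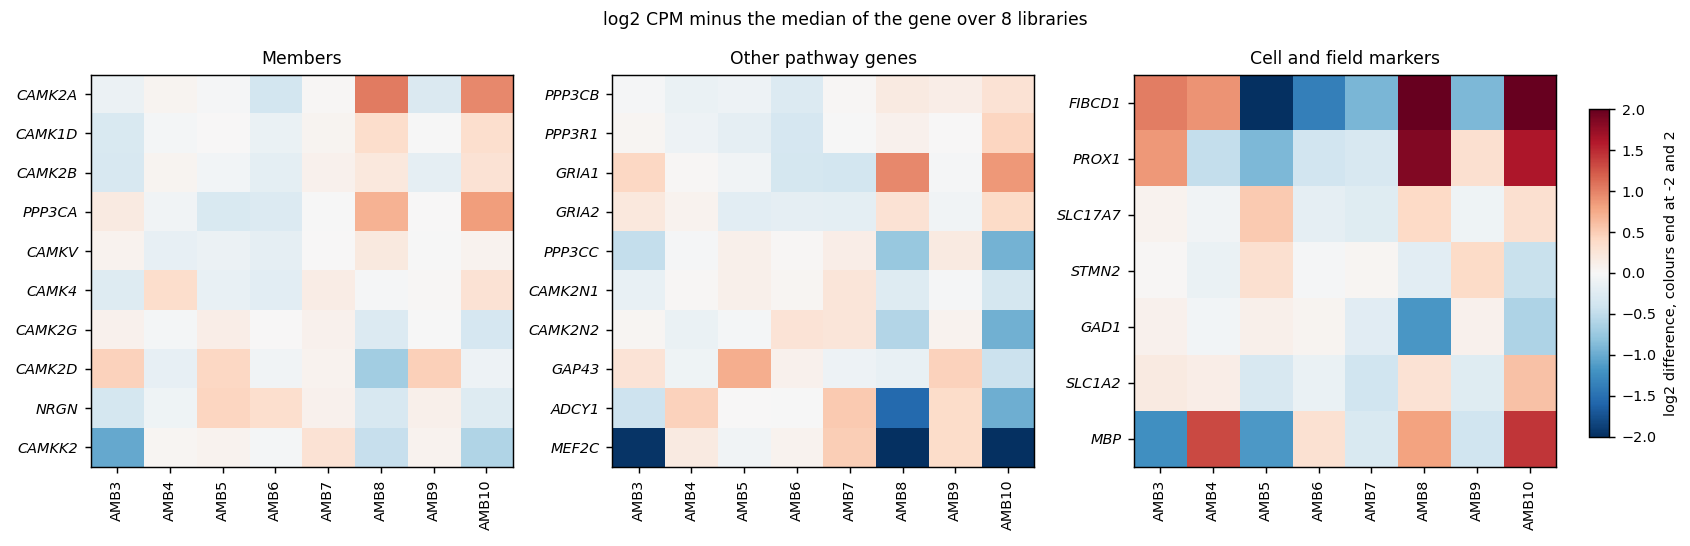
Log2 CPM centred on each gene's own median (colour scale from -2 to 2, values beyond shown at the end colours) of the 10 members, of 10 other pathway genes and of 7 markers, by library. AMB8 and AMB10 are red for CAMK2A, PPP3CA, GRIA1, FIBCD1 and PROX1 and blue for CAMKK2, NRGN, ADCY1 and MEF2C.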

How the data were processed

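Total RNA was sequenced from 8 libraries made from 25 ng of RNA with a strand-specific kit, per the labels' protocols. The authors deposited 1 table of 37053 RefSeq genes, per the file headers, with a raw and a normalized column per library. Raw columns hold the authors' estimated counts, deposited unscaled: 22.5% to 26.7% of those above 0 were whole (tolerance 0.001). The deposited normalized values are log2, and their median over AMB3, AMB8 and AMB10 was 0 in 100.0% of tested genes. DESeq is named without version or role, per the submitters' processing notes. For the aligner, the counter, the strand setting and the build, the sources used here give nothing. Coordinates of all members equal those of the RefSeq table of Panubis1.0. Transcript lengths and sequences were not used here.

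Estimated counts were rounded, filtered with filterByExpr of edgeR 4.0.16 (minimum count 10, no groups) and scaled by TMM (R 4.3.3). DESeq2 1.42.0 gave alternative size factors. Python 3.11.15 with scipy 1.17.1 did the rest. The calculation was tested on simulated data with known changes. With no group labels, all libraries were left unassigned and no test between groups was made. Intervals are exact Poisson for CPM and Wilson for shares, at 95%.

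The members and lists were chosen with earlier results of these data known. Named genes are the members, the 3 genes nearest to each member with a log2 range of at least 1, the gene of highest median CPM and (in pathway lists) of largest range in each list, and 6 fixed genes; a few results are not reported here. TTR, MPPED1, HDAC4, CALM2, CALM3, CALML3, CALML5, CREB1, CAMKK1, PPP3R1, GRIA2, NFATC1, NFATC4 and DAG1 fall outside this rule and were chosen after their values were seen.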

Additional observations from a re-analysis of the deposited data

Results flagged for a closer look

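In 65 sets of 8 values (members, their ratios and shares, and named genes) the gap between the most extreme library and its neighbour was set against the range by Dixon's ratio. It passed the 95% critical value in 2, where chance alone flags about 1 in 20. FKBP1A stood at 33.5 CPM in AMB9 and between 70.9 and 119 CPM in the other libraries (ratio 0.592). NFATC3 stood at 11.9 CPM in AMB5 and between 14.0 and 16.1 CPM in the others (ratio 0.529). No member was among the flagged genes. The ratio sets 1 library against its neighbour, so 2 extreme libraries of like level hide each other. It therefore cannot show whether AMB8 and AMB10 together stand apart, as they do in level for CAMK2A.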

How the results depend on the processing

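Across the 81 recalculations with another scaling, prior count, rounding, filter, centring or the deposited log2 values, each value moved by less than the spread between libraries and each count stayed within 1.5 times, though centring on the mean kept 8 of the 12 nearest genes. Leaving out single libraries gave log2 ranges of 0.652 to 1.18 for CAMK2D, and 3 to 4 members with a log2 range of at least 1. It was 3 without AMB3 (CAMKK2 below), AMB8 (CAMK2D below) or AMB10 (PPP3CA below). Leaving out several libraries at once was chosen after the data were seen. Without AMB8 and AMB10 the log2 range was 0.422 for CAMK2A, 0.652 for CAMK2D, 0.178 for CAMK2G, 0.367 for CAMK1D and 0.483 for PPP3CA, and the number of members past 1 was 1. Without AMB3 as well it was 0.422 for CAMK2A, 0.291 for CAMK2B, 0.652 for CAMK2D, 0.178 for CAMK2G, 0.189 for CAMK1D, 0.332 for CAMKK2, 0.178 for CAMKV and 0.304 for PPP3CA, and the number was 0. Of the 81 tested pathway genes, 17 and 7 were past 1 in these sets, against 26.5% and 19.8% of all tested genes. With single libraries left out 26 to 31 were, against 32.4% to 34.8% of all tested genes. With all libraries 33 were, against 36.1%. Fewer libraries can only lower a range. Shares per kilobase were not run, since no transcript lengths were used here. No paired analysis was possible because no library has a group. Depth limits none of the members, whereas genes near 1 CPM such as NFATC2 rest on as few as 32 counts.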

Other observations

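A list of 19 other calcium sensors, buffers and release channels, put together after HPCA was seen beside CAMK2A, was read in the same way. All 19 genes were tested, a log2 range of 1 or more was found in 13 (68.4%), and the median range was 1.12, against 36.1% and 0.77 of all tested genes. AMB8 and AMB10 were the 2 highest libraries in 7 genes and the 2 lowest in 5, against 11.9% and 11.6% of all tested genes. HPCA, seen first, is among the 7, as is CALB1, which is also on the list of CA field and dentate markers. CALB1, the calcium buffer calbindin of granule cells and CA1 neurons, was at 148 CPM in AMB10 and 120.5 CPM in AMB8, against 44.5 to 93.97 CPM elsewhere. ITPR1, the calcium release channel opened by inositol trisphosphate, stood at 165 CPM in AMB10 and 131 CPM in AMB8, but 125 CPM in AMB4 and 121 CPM in AMB5 came close. The potassium channel partners KCNIP3 and KCNIP4 were lowest in the same 2 libraries: KCNIP3 at 41.0 CPM in AMB8 and 38.2 CPM in AMB10 against 60.9 to 105 CPM elsewhere, and KCNIP4 at 24.7 and 29.1 CPM against 43.8 to 66.2 CPM. CABP7, a calcium-binding protein, had the largest range of this list, 4.03, with 47.4 CPM in AMB10, 45.1 CPM in AMB3 and 30.2 CPM in AMB8, and 2.86 to 10.3 CPM in the other libraries. Since the list was chosen after values were seen, its counts are a description only.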
